A study of Mus musculus with 10 samples.

Results

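DNA replication origin and fork genes are the 40 genes that build the machinery for starting and copying DNA, taken here from the licensing of origins to the supply of deoxynucleotides. Members were chosen by function and symbol, all 40 were found among 23553 named genes of the files, and each was read from its RefSeq row with the highest mean over the 8 RNA libraries. They were grouped into 7 sets: origin recognition and licensing (9 genes), the MCM2-7 helicase (6), helicase activation (8), the clamp and clamp loader (6), the replicative polymerases and primase (6), Okazaki fragment processing (2) and deoxynucleotide supply (3).

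The cells were Neuro-2a, a mouse neuroblastoma line that grows continuously and can take on neuron-like features, with the strain given as C57BL/6+C57BL/6J+CBA. All groups were reverse-transfected with Stealth siRNA and RNAiMAX in D-MEM holding 2% FCS, glutamine and antibiotics, a growth condition labelled as differentiated. One group received siRNA for luciferase (Luc), a gene that mouse cells do not have, and the other siRNA for mSfpq, which targets the RNA-binding protein gene Sfpq. There were 3 poly(A)-selected libraries per siRNA and 1 rRNA-depleted library per siRNA. The labels do not say that replicates came from separate cultures, and a p-value here thus reflects library-to-library spread that may be only technical.

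Levels are given as RPKM, a read density scaled to transcript length and library size, so they can be compared between genes, while read counts and absolute depth are not known. By the steps between low values, the other poly(A) libraries had 0.628 to 1.28 times the depth of the first Luc library, and the rRNA-depleted pair differed in depth by 1.01 times. Sfpq itself had 56.8, 60.8 and 73.0 RPKM in Luc and 3.98, 4.75 and 6.47 in Sfpq libraries, or 7.97% of the control mean. Of 14 neuroblastoma markers 13 passed the filter on low values, and the summed level of the 14 was 1000.1 to 1169.5 RPKM in Luc and 921 to 985 in Sfpq libraries. Tubb3 alone had a mean of 423 RPKM in the poly(A) Luc libraries and 450 in the Sfpq libraries. Among these 13 markers 7 (53.8%) fell and 3 (23.1%) rose, beside 18.6% and 21.3% of all genes tested. The falls included Mycn (log2 fold change -1.38), and the rises were Chga (0.75), Dbh (0.54) and Gata3 (0.51). The part of these marker changes in the results for replication genes was not tested. In the poly(A) libraries, the summed level of 7 fibroblast markers was 0.839 to 1.11 RPKM in Luc and 0.793 to 1.23 in Sfpq, with Lum and Thy1 at 0 in all 6. For 6 glia markers it was 1.54 to 1.69 and 1.44 to 1.77 RPKM, with Aqp4, Sox10 and Mog at 0 in the same libraries, and for 5 leukocyte markers at most 0.0943 RPKM, with Csf1r and Adgre1 among those at 0. The rRNA-depleted sums (Luc, then Sfpq) were 1.35 and 0.975 RPKM for fibroblast, 1.07 and 0.743 for glia and 0.0162 and 0.0111 for leukocyte markers. Luc replicate 3 stood apart from the other Luc libraries, with correlations of 0.985 and 0.979 against 0.996 between those.

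Replication is prepared in the G1 phase, when the origin recognition complex (Orc1 to Orc6) sits on DNA and recruits Cdc6 and Cdt1, which load the ring-shaped MCM2-7 helicase. Geminin (Gmnn) blocks Cdt1 outside that window. At the start of S phase the kinase Cdc7 with its activator Dbf4 fires the origin, Cdc45 and the GINS complex join MCM2-7 to form the active helicase, and polymerases copy behind it. Many of these genes are known targets of the E2F transcription factors, which drive S phase genes in dividing cells.

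After Sfpq knockdown, transcripts of this machinery were more often higher than lower, and the changes were moderate. In poly(A) RNA 15 of the 40 rose, 2 fell and 23 did not pass the test (limma on log2(RPKM + 0.5), adjusted p under 0.05 over all genes tested). Among all 11727 genes tested, 21.3% were higher and 18.6% were lower. Without Luc replicate 3 the members' counts were 25 higher and 2 lower, beside 30.9% and 22.5% of all genes under that setting. The 15 that rose were Orc1, Cdc6, Mcm3, Mcm4, Mcm5, Mcm7, Mcm10, Cdc45, Gins1, Rfc3, Pola2, Pole, Fen1, Rrm2 and Tyms, and the 2 that fell were Orc3 and Gins4. At an unadjusted p under 0.05 from limma, 19 were higher and 2 lower, against 26.9% and 22.3% of all genes. The median log2 fold change of the 40 was 0.29, against 0.05 for all genes tested, and 36 of 40 differences were above 0, as were 54.9% over all genes. All 3 Sfpq libraries lay above all 3 Luc libraries for 21 members and below them for 2, where the shares over all tested genes were 28.2% and 24.7%. Added up, the 40 transcripts made 1125 to 1263 RPKM in the Luc libraries and 1449 to 1462 in the Sfpq libraries, so the groups did not overlap. In bulk RNA a change in the share of cells that are in S phase and a change in RNA per cell cannot be told apart.

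**Figure D1:**
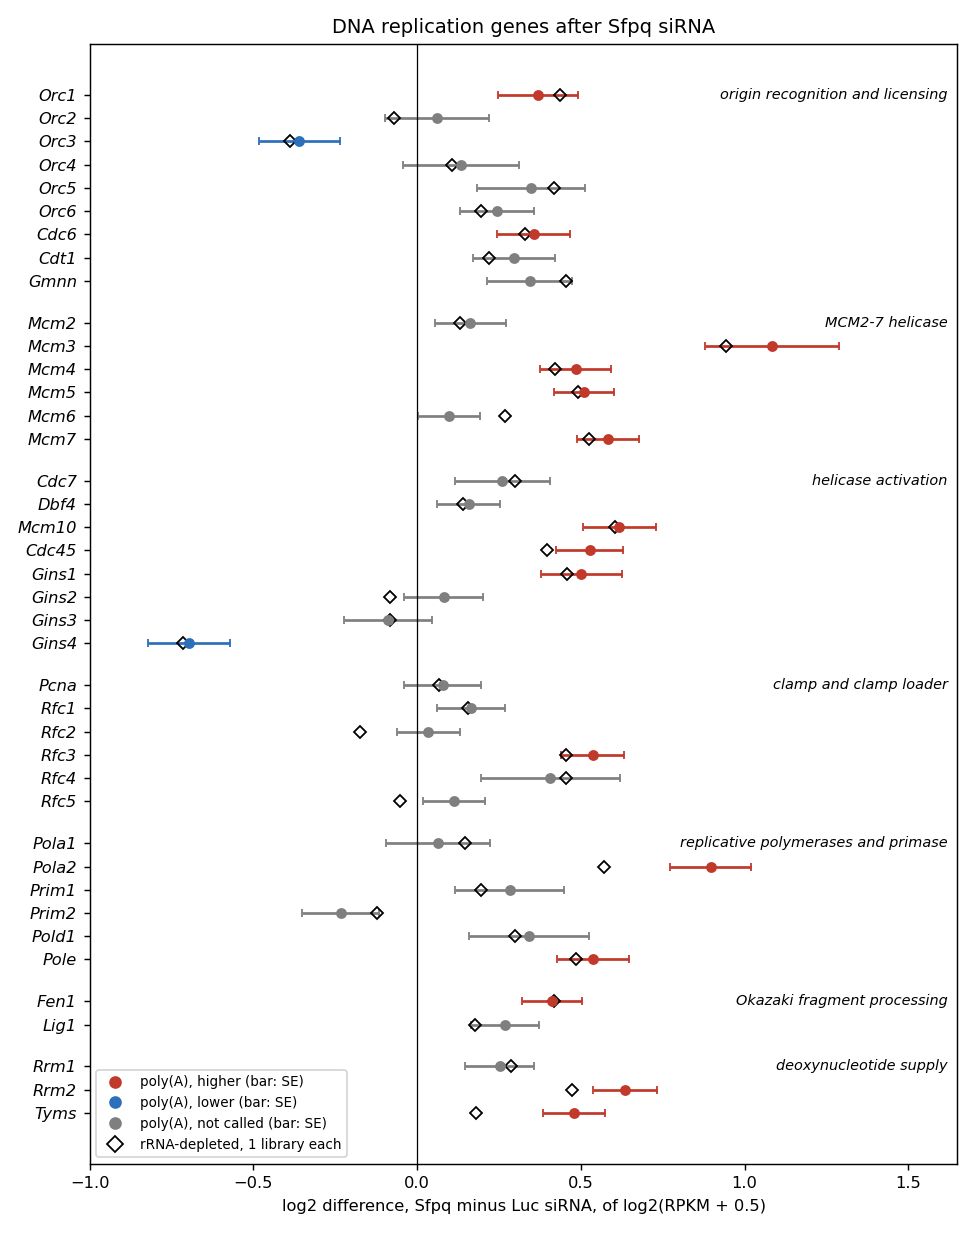
Log2 difference between Sfpq and Luc libraries for each of the 40 genes, grouped by set. Circles are the poly(A) estimates with bars of 1 SE (3 against 3 libraries), coloured by the limma call, and open diamonds are the rRNA-depleted ratios from 1 library per group. Mcm3 (1.08) and Pola2 (0.90) lie farthest to the right and Gins4 (-0.70) farthest to the left, and most diamonds lie close to their circle.

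Promoter sequences were read to describe what the genes share beyond their function, whether or not they rose. The RefSeq promoter table (build GRCm38.p6, 250 bases before to 50 after each gene's start) held 32 of the 40. E2F-type matches were searched on both strands as TTTCCCGC, TTTGGCGC, TTTCGCGC and TTTGCCGC, and matches may overlap. Of the 32 members, 13 (40.6%) held a match, against 2.61% of all 27025 genes in the table and 5.04% of the 9246 that were also tested. Many members are known E2F targets, so this excess was foreseeable without any knockdown and does not bear on the response to Sfpq siRNA. A part of E2F in the changes was not tested. The match was present in 6 of 12 members that rose, in 6 of 19 that did not pass, and in Orc3, which fell. For comparison the CCAAT box was found in 19 of 32 members and 44.2% of tested genes, GGGCGG in 24 of 32 and 70.4%, and TTTGAA in 6 of 32 and 14.0%. A match is a run of letters, not a measured binding site, and binding was not measured here.

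The following 30-base windows show E2F-type letters, in capitals and read 5′ to 3′ on the gene's strand, in genes of the licensing, helicase, clamp loader and polymerase sets, first in members that rose (Orc1, Cdc6, Mcm3, Mcm7, Rfc3), then in Orc3, which fell, and then in Gins3 and Pola1, which did not pass. The Mcm3 and Rfc3 windows hold a pair of matches each. Matches in Cdt1, Pold1 and Lig1, none of which passed, are not shown. A second Mcm7 match, TTTCGCGC at bases 17 to 24 counted from the start, is not shown either.
Orc1, chr4:108579416-108579445, plus strand: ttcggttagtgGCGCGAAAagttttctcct
Cdc6, chr11:98908002-98908031, plus strand: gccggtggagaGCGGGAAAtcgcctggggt
Mcm3, chr1:20820265-20820294, minus strand: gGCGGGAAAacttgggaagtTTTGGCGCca
Mcm7, chr5:138172030-138172059, minus strand: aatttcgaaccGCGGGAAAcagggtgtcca
Rfc3, chr5:151651195-151651224, minus strand: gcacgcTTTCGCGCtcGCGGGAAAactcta
Orc3, chr4:34614965-34614994, minus strand: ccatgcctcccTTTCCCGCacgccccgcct
Gins3, chr8:95633507-95633536, plus strand: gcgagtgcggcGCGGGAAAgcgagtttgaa
Pola1, chrX:93632275-93632304, minus strand: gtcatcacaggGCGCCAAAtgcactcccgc

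Mcm5 and Mcm6 encode subunits of the same ring and both carry a pair of overlapping matches, TTTCGCGC with TTTGGCGC on the other strand. Their 250 bases before the start are shown because Mcm5 rose while Mcm6 did not pass, with the matches in capitals.
Mcm5, chr8:75109259-75109508, plus strand: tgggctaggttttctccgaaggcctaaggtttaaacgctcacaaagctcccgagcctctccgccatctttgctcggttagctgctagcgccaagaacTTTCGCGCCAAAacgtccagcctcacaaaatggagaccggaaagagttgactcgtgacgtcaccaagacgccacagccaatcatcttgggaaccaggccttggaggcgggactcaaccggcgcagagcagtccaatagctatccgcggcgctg
Mcm6, chr1:128359706-128359955, minus strand: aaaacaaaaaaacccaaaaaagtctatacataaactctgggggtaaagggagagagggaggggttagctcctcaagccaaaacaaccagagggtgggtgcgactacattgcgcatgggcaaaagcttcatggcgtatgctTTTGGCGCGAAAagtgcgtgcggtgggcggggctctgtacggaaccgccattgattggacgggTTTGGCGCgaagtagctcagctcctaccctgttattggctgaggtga
The overlapping pair lies 153 to 142 bases before the start in Mcm5 and 110 to 99 before it in Mcm6, and Mcm6 has a further match 47 to 40 bases before the start. The letters were thus present both in a subunit that rose and in one that did not pass.

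The MCM2-7 ring, the motor that unwinds DNA at the fork, had 4 of 6 subunits higher and 0 lower (at unadjusted p under 0.05 likewise 4 higher and 0 lower with limma), and a median log2 fold change of 0.50. Of all genes tested, 21.3% were higher and 18.6% lower (26.9% and 22.3% at the unadjusted threshold). Mcm3 changed most of all 40 members. It had 35.4, 29.1 and 21.5 RPKM in Luc and 76.3, 59.3 and 47.8 in Sfpq libraries, a 2.13-fold rise (log2 difference 1.08, SE 0.20, limma adjusted p = 0.00289). The Sfpq values all lay above the Luc values, and within each group the libraries spread more widely than for the other subunits. In both groups the Mcm3 level fell from replicate 1 to replicate 3. Mcm7, whose transcript also hosts microRNAs, had 50.03, 53.3 and 54.4 RPKM in Luc and 73.7, 82.5 and 80.9 in Sfpq libraries (0.58, SE 0.10, limma adjusted p = 0.00134). Those groups were tight and well separated. Mcm5 rose from 35.3 ± 1.04 to 50.5 ± 2.15 RPKM (SD, n = 3), a log2 difference of 0.51, and Mcm4 from 30.4 ± 3.40 to 42.6 ± 1.27 (SD, n = 3; 0.48).

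The other two subunits did not pass. Mcm6, the most abundant MCM transcript by mean over the poly(A) Luc libraries but not in the rRNA-depleted one, had 54.1, 50.4 and 56.6 RPKM in Luc and 58.9, 57.3 and 56.1 in Sfpq libraries (log2 fold change 0.10, SE 0.09, limma adjusted p = 0.435), with overlapping groups. Mcm2 had 40.2 ± 4.10 and 44.9 ± 2.13 RPKM (SD, n = 3; 0.16, limma adjusted p = 0.252). The ring holds 1 copy of each subunit, yet the transcripts were not level. In Luc replicates 1 to 3 the highest MCM transcript was 1.75, 1.98 and 2.63 times the lowest, and in the Sfpq libraries 1.77, 1.95 and 1.95 times. By mean level Mcm3 was the lowest of the 6 in Luc (28.6 RPKM, with Mcm4 next at 30.4) and came after only Mcm7 in Sfpq libraries (61.1 against 79.0).

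The position of Mcm3 against its partners was also compared within libraries, a quantity chosen after the values were seen. Its log2 level minus the mean of the other 5 subunits was -0.22, -0.48 and -0.95 in Luc and 0.54, 0.11 and -0.16 in Sfpq libraries. The groups were 0.72 apart (two-sided exact permutation p = 0.1, the smallest that 3 against 3 libraries allow). In rRNA-depleted RNA the same gap went from -0.29 to 0.29.

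**Figure D2:**
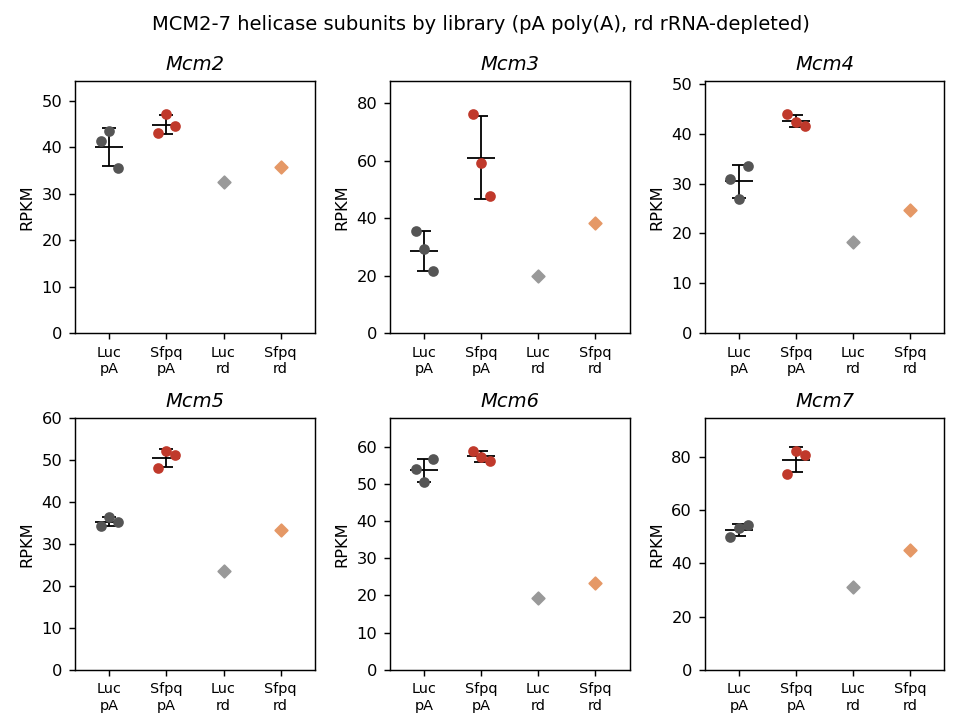
RPKM of the MCM2-7 subunits in every library. Circles are the 3 poly(A) libraries of each group with mean and SD, and diamonds the single rRNA-depleted library of each group. For Mcm3, Mcm4, Mcm5 and Mcm7 the Sfpq circles lie above all Luc circles, while those of Mcm2 and Mcm6 overlap with them.

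Among helicase activation genes 3 of 8 (37.5%) were higher and 1 (12.5%) lower, beside 21.3% and 18.6% of all genes tested. Their median log2 fold change was 0.21. Without Luc replicate 3, 5 of 8 rose, beside 30.9% of all genes, and the median was 0.32. Without Luc replicate 2 the median was 0.13. Mcm10, which helps to switch on the loaded helicase, had 16.2, 17.6 and 20.1 RPKM in Luc and 26.1, 28.6 and 28.8 in Sfpq libraries (0.62, SE 0.11, limma adjusted p = 0.00217). Cdc45, a helicase cofactor, rose from 19.98 ± 1.75 to 28.95 ± 1.01 RPKM (SD, n = 3; 0.53). The groups did not overlap for either gene. The origin-firing kinase Cdc7 had 10.2 ± 2.27 and 12.2 ± 0.334 RPKM and its activator Dbf4 27.3 ± 1.81 and 30.5 ± 0.222 (SD, n = 3), and neither passed (limma adjusted p = 0.184 and 0.217).

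The 4 GINS subunits form 1 complex at the fork, and their transcripts went different ways. Gins4 (also known as SLD5) fell: 34.0, 35.8 and 43.3 RPKM in Luc against 20.8, 22.7 and 25.6 in Sfpq libraries, 0.61 times the control level (log2 difference -0.70, SE 0.13, limma adjusted p = 0.00217). The Sfpq libraries all lay below the Luc libraries. Gins1 (PSF1) rose from 17.7 ± 2.70 to 25.1 ± 1.39 RPKM (SD, n = 3), by 0.50 on the log2 scale with a limma adjusted p of 0.0110, though not past the threshold without Sfpq replicate 2 (adjusted p = 0.0567). Gins2 (PSF2) had 44.0, 38.6 and 33.8 RPKM in Luc and 41.7, 37.2 and 43.8 in Sfpq libraries, with overlapping groups (0.08, limma adjusted p = 0.627). It was the most abundant GINS transcript by mean over the poly(A) Luc libraries (38.8 RPKM, Gins4 37.7), but not in Luc replicate 3. Gins3 (PSF3) was low throughout, at 3.31 ± 0.288 and 3.10 ± 0.480 RPKM (SD, n = 3).

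Set against its 3 partners within each library, Gins4 lay 1.25, 1.49 and 1.61 log2 units above their mean in Luc and 0.53, 0.56 and 0.67 above it in Sfpq libraries. This gap, chosen after the values were seen, differed by -0.86 between the groups (two-sided exact permutation p = 0.1, the smallest possible). In rRNA-depleted RNA the gap was 0.99 in Luc and 0.18 in Sfpq.

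**Figure D3:**
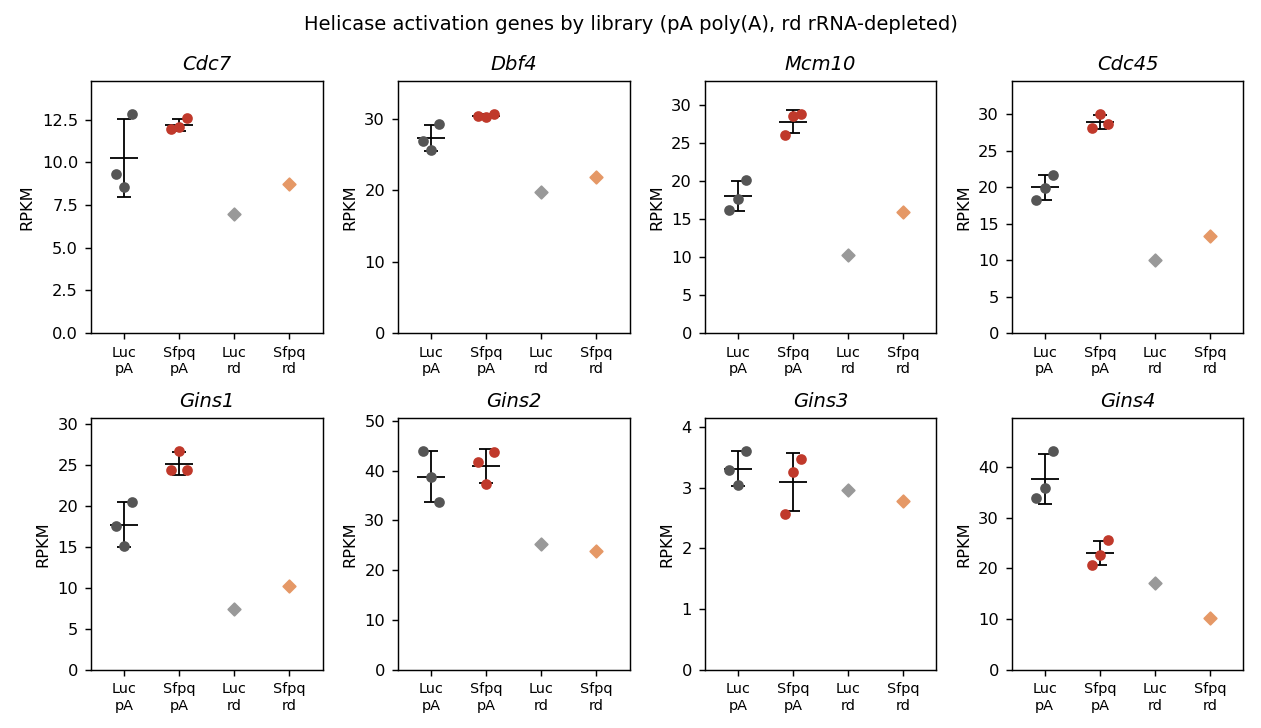
RPKM of the 8 helicase activation genes in every library. Circles are poly(A) libraries with mean and SD (3 per group) and diamonds the single rRNA-depleted libraries. Gins4 is the panel in which the Sfpq libraries lie below all Luc libraries, while Mcm10, Cdc45, Gins1 and Dbf4 show them above.

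Among the origin recognition and licensing genes 2 of 9 (22.2%) rose and 1 (11.1%) fell (4 higher and 1 lower at unadjusted p under 0.05, limma), and the median log2 fold change was 0.30. The share that rose was near the 21.3% of all genes tested, and the share that fell was below their 18.6%. At the unadjusted threshold the shares of all genes were 26.9% and 22.3%. Without Luc replicate 3, 6 of the 9 rose and 1 fell, beside 30.9% and 22.5% of all genes. Orc1, the largest ORC subunit and a classical E2F target, was scarce: 2.89, 3.10 and 3.57 RPKM in Luc and 3.91, 4.63 and 4.24 in Sfpq libraries (0.37, SE 0.12, limma adjusted p = 0.0374). Orc3, a core subunit, moved the other way, with 7.43, 6.54 and 8.68 RPKM in Luc and 5.62, 5.67 and 5.92 in Sfpq libraries (-0.36, SE 0.12, limma adjusted p = 0.0427). For both genes the groups were separate, by small margins. Cdc6, which loads the helicase with Cdt1, rose from 7.38 ± 0.551 to 9.58 ± 0.787 RPKM (SD, n = 3), by 0.36 on the log2 scale with a limma adjusted p of 0.0305. These 3 calls ended most often under other settings. Orc1 no longer passed without Luc replicate 1 or 2 or Sfpq replicate 2 or 3 (limma adjusted p up to 0.152), Orc3 without Luc replicate 1 or any one Sfpq replicate (up to 0.128), and Cdc6 without Luc replicate 1 or 2 or any one Sfpq replicate (up to 0.144). With no filter on low values the Orc1 and Orc3 calls ended too.

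The most abundant of these transcripts by mean over the poly(A) Luc libraries was Orc6, though Cdt1 was higher in Luc replicate 2 (48.8 RPKM). Orc6 had 48.8, 42.0 and 54.1 RPKM in Luc and 59.4, 55.6 and 56.1 in Sfpq libraries. Its groups did not overlap, yet the difference did not pass (log2 fold change 0.24, limma adjusted p = 0.113). Nor did those of the licensing factor Cdt1 (0.30, limma adjusted p = 0.0905) and its inhibitor Gmnn (0.34, adjusted p = 0.0597). Orc5 (0.35), Orc4 (0.13) and Orc2 (0.06) had overlapping groups.

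In the clamp and clamp loader set 1 of 6 (16.7%) rose, 0 fell with limma (1 and 0 also at unadjusted p under 0.05), and the median was 0.14. The share that rose was below the 21.3% of all genes tested, of which 18.6% fell (26.9% and 22.3% at the unadjusted threshold). Without Luc replicate 3, 2 of the 6 rose, beside 30.9% of all genes. Pcna, the sliding clamp that tethers polymerases to DNA, was the most abundant of the 40 transcripts, with 123, 117 and 152 RPKM in Luc and 135, 133 and 145 in Sfpq libraries. The groups overlapped (log2 fold change 0.08, SE 0.12, limma adjusted p = 0.626). Rfc3, a small subunit of the loader that places the clamp, had 52.8, 50.8 and 57.8 RPKM in Luc and 80.7, 74.8 and 79.1 in Sfpq libraries (0.54, SE 0.10, limma adjusted p = 0.00215). Its partners in the same five-membered loader had smaller differences that did not pass: Rfc1 0.16, Rfc2 0.03, Rfc5 0.11 and Rfc4 0.41. Rfc4 was 24.5, 22.5 and 42.4 RPKM in the Luc libraries, so that Luc replicate 3 alone lay above every Sfpq value (34.1, 38.5 and 42.0). That Rfc4 differed less than Rfc3 rested on this library. Without it Rfc4 passed, with a log2 difference of 0.69 beside 0.59 for Rfc3, and in rRNA-depleted RNA their ratios were 0.456 and 0.455. Pcna and Tyms have pseudogene copies in the mouse gene table, and how reads with several matches were counted is not given in the sources used here.

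The polymerase and primase set had 2 of 6 higher and 0 lower (likewise 2 and 0 at unadjusted p under 0.05, limma), with a median of 0.31. Over all genes tested the shares were 21.3% higher and 18.6% lower (26.9% and 22.3% at the unadjusted threshold). Pola2, the regulatory subunit of the priming polymerase alpha, had 8.47, 9.90 and 7.99 RPKM in Luc and 18.8, 15.5 and 16.03 in Sfpq libraries, a 1.91-fold rise (0.90, SE 0.12, limma adjusted p = 0.000494). No other member had a smaller p. Its catalytic partner Pola1 had 4.33, 3.88 and 5.98 RPKM against 4.41, 5.45 and 4.86, with overlapping groups (0.06, limma adjusted p = 0.772). The log2 gap between Pola2 and Pola1, again chosen after the values were seen, was 0.84 ± 0.43 in the controls and 1.68 ± 0.28 after knockdown (SD, n = 3; two-sided exact permutation p = 0.1, the smallest possible). In rRNA-depleted RNA it was 0.61 and 1.04, a smaller difference (0.43 beside 0.83).

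Pole, the catalytic subunit of the leading-strand polymerase epsilon, had 8.53, 8.35 and 10.1 RPKM in Luc and 12.9, 13.0 and 13.8 in Sfpq libraries (0.54, SE 0.11, limma adjusted p = 0.00423). The groups were well apart. Pold1, its counterpart in lagging-strand polymerase delta, had 30.9, 32.9 and 19.3 RPKM in Luc and 32.0, 36.6 and 34.6 in Sfpq libraries, and its difference of 0.34 did not pass (limma adjusted p = 0.164). Prim1, the catalytic primase subunit, had 38.3, 31.5 and 52.5 RPKM in Luc and 45.9, 50.2 and 49.8 in Sfpq libraries (0.28, limma adjusted p = 0.205). It was the most abundant transcript of the set by mean over the poly(A) Luc libraries, though below Pold1 in Luc replicate 2. The large primase subunit Prim2 had 11.8 ± 1.34 and 9.98 ± 0.748 RPKM (SD, n = 3), a difference of -0.23 that also did not pass (limma adjusted p = 0.142).

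Of the Okazaki fragment genes, the flap endonuclease Fen1 rose, and its Luc libraries were the most uniform of all members: 20.5, 20.3 and 20.4 RPKM against 27.0, 28.3 and 26.5 in Sfpq libraries (0.41, SE 0.09, limma adjusted p = 0.00649). DNA ligase 1 (Lig1), which seals the fragments, had 22.3, 25.2 and 22.2 RPKM in Luc and 25.9, 29.3 and 29.0 in Sfpq libraries. Its groups were separate but the difference of 0.27 did not pass (limma adjusted p = 0.0658), whereas without Luc replicate 3 it did (0.24, adjusted p = 0.0478).

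The deoxynucleotide genes had 2 of 3 higher and 0 lower (3 and 0 at unadjusted p under 0.05, limma). All genes tested had 21.3% higher and 18.6% lower (26.9% and 22.3% at the unadjusted threshold). Rrm2, the S phase subunit of ribonucleotide reductase, had 47.4, 45.3 and 53.1 RPKM in Luc and 74.5, 76.6 and 75.5 in Sfpq libraries (log2 fold change 0.63, SE 0.10, limma adjusted p = 0.000957). Tyms, which makes thymidylate, had 14.6, 15.3 and 14.2 RPKM in Luc and 21.1, 19.8 and 21.1 in Sfpq libraries (0.48, SE 0.10, limma adjusted p = 0.0037). Both rises were clear of the spread within groups. Rrm1, the large subunit that pairs with Rrm2, had 42.6 ± 3.01 and 50.9 ± 4.16 RPKM (SD, n = 3; 0.25, limma adjusted p = 0.0841), and passed without Luc replicate 3 (0.29, adjusted p = 0.0217).

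The rRNA-depleted libraries, 1 per group and so without a replicate check, gave most members ratios close to those of poly(A) RNA. The median log2 ratio of the 40 was 0.28, against -0.02 for all 11386 genes measured, and 32 of 40 ratios were above 0, where 48.3% of all genes were. On the log2(RPKM + 0.5) scale, 2 members were past 1.5-fold on the high side (7.86% of all genes), Mcm3 and Mcm10, and 1 on the low side (13.3%), Gins4. Mcm3 went from 19.8 RPKM with Luc siRNA to 38.5 with Sfpq siRNA, Mcm10 10.3 and 15.9, and Gins4 17.2 and 10.3. Pola2 went from 6.21 to 9.47 RPKM, a log2 ratio of 0.57 beside 0.90 in poly(A) RNA, and was past 1.5-fold only as a ratio of RPKM without the added 0.5 (1.53-fold). Rrm2 went from 20.6 to 28.7 RPKM and Mcm7 from 31.2 to 45.2. Tyms differed less than in poly(A) RNA, going from 8.24 to 9.40 RPKM, a log2 ratio of 0.18 beside 0.48.

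By set, the median rRNA-depleted ratios were 0.46 for MCM2-7, 0.30 for Okazaki fragment genes, 0.29 for deoxynucleotide genes, 0.25 for polymerases and primase, 0.22 for licensing genes, 0.22 for helicase activation and 0.11 for clamp and clamp loader. Clamp and clamp loader had the lowest median in both preparations. In poly(A) RNA the medians of MCM2-7 (0.50) and deoxynucleotide supply (0.48) were close, and their order turned without Luc replicate 2 (0.46 and 0.51), without Sfpq replicate 2 (0.49 and 0.51) and with rows averaged per gene (0.496 and 0.501). All 15 members that rose in poly(A) RNA had a ratio above 0, as did 98.5% of the measured genes that rose, and Orc3 (-0.39) and Gins4 (-0.71) were below 0, as were 99.8% of those that fell. The sign was the same in both preparations for 36 of 40 members and for 86.7% of all genes. The exceptions were Orc2, Gins2, Rfc2 and Rfc5, none of which passed in poly(A) RNA. The labels do not say whether the preparations came from the same cultures.

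**Figure D4:**
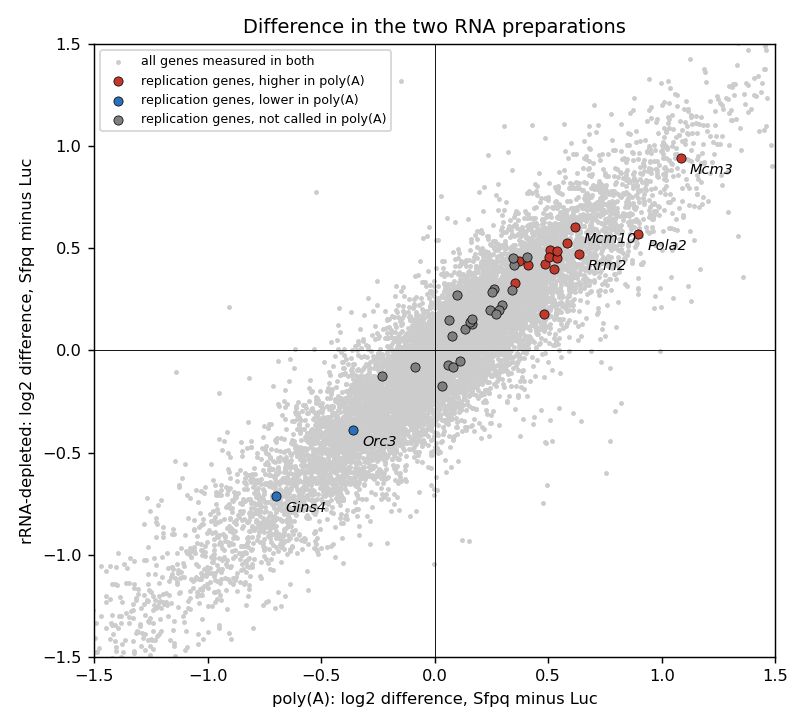
Log2 difference between Sfpq and Luc in poly(A) RNA (horizontal, 3 libraries per group) and in rRNA-depleted RNA (vertical, 1 library per group). Grey points are all genes measured in both, drawn to 1.5 in each direction, and coloured points the 40 replication genes by their poly(A) call. The replication genes lie along the same diagonal as the other genes, with Mcm3 at the upper and Gins4 at the lower end.

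The levels of the 40 transcripts, as opposed to their changes, differed between preparations in a way that Luc and Sfpq libraries shared. Control levels in rRNA-depleted RNA were a median of 56.0% of those in poly(A) RNA for the members. For the 11136 genes at 0.5 RPKM or more in both preparations it was 71.3%. Cdt1 was far below this: it had 45.2, 48.8 and 36.0 RPKM in the poly(A) Luc libraries but 3.80 in the rRNA-depleted Luc library, which is 8.78%. In Sfpq cells the poly(A) libraries had 56.6, 51.7 and 50.6 RPKM and the rRNA-depleted library 4.52, which is 8.53%. At or below the Cdt1 percentage were 0.656% of these genes in Luc and 0.674% of the 11130 that passed the same filter in Sfpq cells. The filter leaves out genes under 0.5 RPKM in rRNA-depleted RNA, so scarce genes with so low a percentage are not counted. Fen1 was the opposite extreme, at 112% in both. Orc5 (28.6%) and Rfc4 (29.8%) were next to Cdt1 in control cells.

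**Figure D5:**
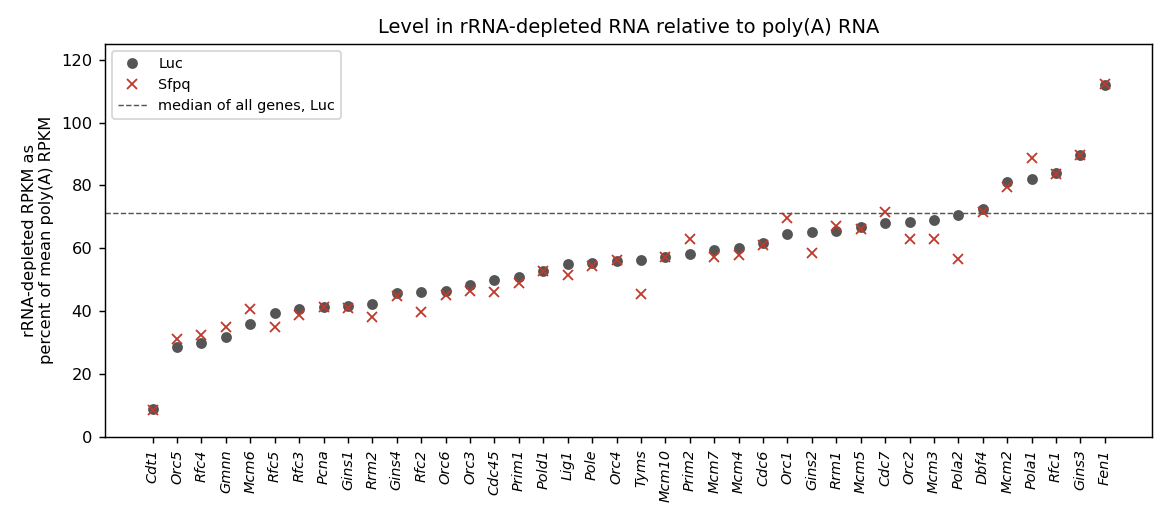
Level of each of the 40 genes in the rRNA-depleted library as a percentage of the mean of the 3 poly(A) libraries, for Luc (circles) and Sfpq (crosses), ordered by the Luc value. The dashed line is the median in Luc of all genes at 0.5 RPKM or more in both preparations (71.3%). Cdt1 stands at 8.78% and 8.53%, Fen1 at 112% in both.

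Luc replicate 3 touches several of these results. It lay more than 0.25 log2 units above the mean of the other Luc libraries for 14 of the 40 members, among them Rfc4, Orc4, Orc5 and Prim1, and more than 0.25 below for 5 (Pold1, Mcm3, Cdt1, Gins2 and Mcm2). Of all 11727 genes tested, 3724 lay more than 0.25 above and 2264 more than 0.25 below. Over all genes tested the median distance was 0.26 and that between the other Luc libraries 0.11, and over the members 0.24 and 0.11. Without this library 25 of the 40 rose and 2 fell, against 30.9% and 22.5% of all genes, and the median was 0.38. By set, those that rose without it were 6 of 9 licensing genes, 4 of 6 MCM2-7 subunits, 5 of 8 activation genes, 2 of 6 clamp and loader genes, 3 of 6 polymerase and primase genes, 2 of 2 Okazaki fragment genes and 3 of 3 deoxynucleotide genes, and the 2 that fell were again Orc3 and Gins4. All 17 calls made with it remained. The 10 added were Orc4, Orc5, Orc6, Gmnn, Cdc7, Dbf4, Rfc4, Prim1, Lig1 and Rrm1, with log2 fold changes between 0.21 (Dbf4) and 0.69 (Rfc4). For the 5 members that were low in Luc replicate 3, the differences were smaller without it. Pold1 went from 0.34 to 0.11, Mcm3 from 1.08 to 0.89, Cdt1 from 0.30 to 0.17, Gins2 from 0.08 to -0.01 and Mcm2 from 0.16 to 0.08. Leaving out Sfpq replicate 2 left 12 members higher and 1 lower. The shares of all genes without Sfpq replicate 2 are not given here, so this count is not set against them.

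Other replication factors, E2F proteins and mitosis genes give the setting. Of 44 further replication factors, 14 (31.8%) rose, 2 (4.55%) fell and 28 did not pass, with a median of 0.24. The shares over all genes tested were 21.3% and 18.6%. Without Luc replicate 3, 27 of the 44 rose and 3 fell, beside 30.9% and 22.5% of all genes. In rRNA-depleted RNA their median was 0.20. The largest rises were in Dscc1 (log2 fold change 0.96) and Chtf18 (0.89), which belong to an alternative clamp loader built on Rfc2 to Rfc5, and in the fork protection factor Timeless (0.89). Those that fell were Rrm2b, a ribonucleotide reductase subunit known to be induced by p53 (5.14 ± 1.60 to 2.46 ± 0.378 RPKM, SD, n = 3; -0.90), and the folate enzyme Shmt1 (-0.42).

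Of 17 E2F and pocket protein genes 3 (17.6%) rose, 2 (11.8%) fell and 12 did not pass, with a median of 0.14. Both shares were below those of all genes tested (21.3% and 18.6%). Without Luc replicate 3, 7 rose and 2 fell, beside 30.9% and 22.5% of all genes. The median of the list in rRNA-depleted RNA was 0.05. Rbl1, which encodes the pocket protein p107, rose from 4.43 ± 0.713 to 11.3 ± 0.246 RPKM (SD, n = 3), by 1.26 on the log2 scale with a limma adjusted p of 7.93e-05. The repressor E2f7 (1.09) and the activator E2f1 (0.39) rose as well. In rRNA-depleted RNA the log2 ratios of Rbl1, E2f7 and E2f1 were 1.20, 1.03 and 0.17. The E2F partners Tfdp1 (-0.56) and Tfdp2 (-0.47) fell. The activator E2f3 had 6.84 ± 1.502 and 5.05 ± 0.710 RPKM (SD, n = 3; -0.39), which did not pass (limma adjusted p = 0.0836).

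Mitosis genes were also more often higher than lower, with 8 of 24 (33.3%) higher, 2 (8.33%) lower, 14 not past the test and a median of 0.27. Of all genes tested, 21.3% were higher and 18.6% lower. Without Luc replicate 3, 15 were higher and 2 lower, beside 30.9% and 22.5% of all genes. In rRNA-depleted RNA the mitosis median was 0.14, and 15 of 24 ratios were above 0, where 48.3% of all genes were. The spindle midzone protein gene Prc1 (0.80), the checkpoint kinase Bub1 (0.67) and Cenpf (0.61) had the largest rises. The S and G2 phase cyclin Ccna2 (-0.66) and the proliferation marker Mki67 (-0.52) fell, while Ccnb1 had 145 ± 13.0 and 149 ± 4.63 RPKM (SD, n = 3; limma adjusted p = 0.755). The part of cell cycle phase in the replication gene changes was not tested.

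The row chosen for a gene mattered little. The 13 members with more than 1 RefSeq row gave log2 differences within 0.11 of each other between rows, the widest being Orc4 (0.13 to 0.24). The spans of 9 members overlap a protein-coding gene in the GRCm38.p6 gene table, among them Mcm7 with Ap4m1, Cdc45 with Ufd1, Orc1 with Prpf38a, Orc3 with Akirin2 and Rars2, and Fen1 with Tmem258. Whether the counting used strand is not given in the sources used here, so reads from such pairs may not be separated.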

How the data were processed

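Sample titles gave the groups and the replicate numbers; for 1 Sfpq poly(A) library the description carries a different number. Each library has its own deposited table of RPKM values by RefSeq transcript, per the file headers. The submitters' processing notes name TopHat2 2.0.10 and mm9. How the authors computed RPKM is not given in the sources used here. The RNA polymerase II libraries of the series are not analysed here.

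Of 30978 rows, 30507 (98.48%) were named through a GRCm38.p6 RefSeq table, used for names and overlaps. The members, sets, comparison lists and tests were chosen with earlier results of these data known. The poly(A) comparison used limma 3.58.1 (R 4.3.3, trended prior) on log2(RPKM + 0.5) for the 11727 genes averaging 0.5 RPKM or more, with Benjamini-Hochberg adjustment over all of them. Fold changes on this scale understate changes of scarce genes. The rRNA-depleted pair was described by ratios on the same scale. Named by rule were all members, Sfpq, and the 3 largest called rises and falls of each comparison list; values in every library were given for the 2 largest called changes, the most abundant member and every fall in each set, and other values shown by library were chosen after they were seen. Marker genes named in the opening, E2f3 and Ccnb1 fall outside the rule and were chosen after their values were seen. The fit was tested on simulated data with 200 changed genes among 11727, where it recovered 21.7% of changes of 0.5 log2 units, the smallest simulated. In the measured data 40% of genes were called, so the adjusted threshold was stricter in the simulation and that share does not carry over. A member that did not pass is still not shown to be unchanged. Figures and summaries used Python 3.11.15 with pandas 2.3.3 and scipy 1.17.1.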

Additional observations from a re-analysis of the deposited data

How the results depend on the processing

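Under 15 alternatives in poly(A) RNA (pseudocounts of 0.1 and 1, a low-value filter of 2 RPKM or none, scaling by median ratios, quantiles made equal, an untrended prior, replicate number as a block, rows averaged per gene, and each library left out) no called member changed sign, and 13 of the 17 calls held in all 15. The other 4 were Orc1, Orc3, Cdc6 and Gins1. The count of members called lower was 1 with no filter on low values, and between 1 and 2 when a library was left out. The count called higher lay between 12 and 25 when a library was left out, 25 being without Luc replicate 3. Of all genes, 30.9% were higher without Luc replicate 3, and their shares under the other alternatives are not given here. The members' median log2 fold change of 0.29 was 0.24 with median-ratio scaling, 0.34 with quantile normalization and 0.23 to 0.38 leaving out a library, and that of helicase activation 0.13 to 0.32 leaving out a library. The cause was not tested. Medians of the other 6 sets and the 4 alternatives for rRNA-depleted ratios moved by less than the spread between poly(A) libraries, and Sfpq stayed called lower throughout. With the replicate block 17 members rose and 2 fell, Gmnn and Rfc4 being added, and the limma adjusted p of Mcm3 was 5.0e-05. The correlations do not settle whether the numbers pair the libraries. Same-numbered deviations correlated at 0.33, -0.04 and 0.16, and not every library correlated best with its own number. Absolute depth is unknown, so precision rests on 3 libraries per group in poly(A) RNA and on none in rRNA-depleted RNA.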

Other observations

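Values are given here for factors that work beside the 40 genes at the fork; these genes were picked after their values were seen, and no group of them was tested. Over all genes tested 21.3% were higher and 18.6% lower. The 3 genes specific to the alternative clamp loader each rose in poly(A) RNA, namely Dscc1 (5.65 ± 1.06 to 11.4 ± 0.129 RPKM, SD, n = 3), Chtf18 (4.52 ± 0.888 to 8.71 ± 0.739) and Chtf8 (79.6 ± 5.64 to 109 ± 15.8). The single-strand DNA binding subunits Rpa1 (log2 fold change 0.31) and Rpa2 (0.55) rose, while Rpa3 had a difference of 0.24 that did not pass (limma adjusted p = 0.19). Of the ribonuclease H2 subunits, which remove ribonucleotides from DNA, Rnaseh2b (0.77) and Rnaseh2a (0.55) rose, and Rnaseh2c (-0.06) did not pass. Fork protection genes showed rises of Timeless and of Clspn (0.54), with Tipin at 0.28 not past the test. Within polymerase epsilon, Pole and the accessory Pole3 (0.55) rose, Pole2 (0.32) did not pass, and Pole4 had a difference of -0.43 that also did not pass (limma adjusted p = 0.0503). For those that rose, the rRNA-depleted log2 ratios were 0.72 (Dscc1), 0.83 (Chtf18), 0.21 (Chtf8), 0.36 (Rpa1) and 0.44 (Rpa2). They were 0.35 for Rnaseh2b, 0.10 for Rnaseh2a, 0.81 for Timeless, 0.39 for Clspn, 0.49 for Pole and 0.47 for Pole3.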
